A study of Mus musculus with 65 samples.

Results

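H3K27ac, the acetylation of histone H3 at lysine 27, was followed at MEF2 sites in the cerebellum of mice that lack MEF2A alone. The 6 libraries of the MEF2A line, 3 of MEF2A conditional knockout (cKO) and 3 of MEF2A Control mice, were chosen by their genotype labels out of 65 samples in the series, and all sites of the deposited count table were kept, 198 of the class named compensatory by the authors and 1221 non-compensatory ones. Of these sites 1372 held enough reads for a test and 47 did not. The study examined the interdependency of the paralogues MEF2A and MEF2D, and it also profiled H3K27ac in MEF2D cKO and MEF2AD cKO (both genes) mice with their own Controls, 3 libraries each. All of these libraries came from female C57BL/6 mice and from cerebellum, per the labels, and the 2 input libraries carried the genotypes MEF2AD cKO and MEF2AD Control. RNA of the same 3 genotype pairs was sequenced at postnatal day 22, 4 libraries a group; the titles of these samples name the Rotarod, a motor training device, while the deposited sheet calls them baseline, so whether the mice were trained is not settled by the sources used here. The sources used here do not name the Cre driver, the floxed alleles carried by Controls, the age at the ChIP or the number of mice behind a library, so p-values measure the spread between these samples, which may be technical.

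MEF2A and MEF2D are MADS-box transcription factors that bind the same AT-rich DNA element as dimers and recruit either histone deacetylases or acetyltransferases, depending on calcium signals. In the cerebellum they are best known in granule neurons, where they act in activity-dependent transcription and in the shaping of synapses. H3K27ac is laid down by p300 and CBP and marks active promoters and enhancers. Because the factors share an element, many sites can be occupied by either of them.

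The MEF2A-line libraries held 14194272 to 21746396 reads, of which 98106 to 142855 lay in the sites, with a median of 56 to 85 reads per site and library. Both inputs were taken as such from their titles, although their antibody label names H3K27ac. In these inputs 0.0337% of the MEF2AD cKO reads and 0.0357% of the MEF2AD Control reads lay in the sites. Every compensatory site and no other overlapped a MEF2A peak. By the authors' peak calls 165 were bound by both factors, 33 by MEF2A alone, and the 1221 non-compensatory sites by MEF2D alone. The lists differ in size (203 MEF2A and 1388 MEF2D peaks), and a missing peak does not show that the factor is absent. Sites had a median width of 312 bp. Of the 1352 sites that could be placed relative to a gene, 154 lay within 1000 bp of a transcription start and 943 lay at least 10 kb from one. In the RNA of the line, Mef2a had 76.9, 97.9, 87.9 and 89.2 counts per 1000000 (CPM) in MEF2A cKO and 207.3, 220.0, 229.7 and 231.8 CPM in MEF2A Control, so the targeted transcript was lower in every cKO library (log2 fold -1.33 ± 0.06, adjusted p = 5.36e-14). All 8 granule neuron markers were measured, and their summed RNA spanned 7032.9 to 7762.4 CPM in MEF2A cKO and 6972.8 to 7307.4 CPM in MEF2A Control; 1 of the 8, Gabra6, was called. Summed RNA of 5 Purkinje cell markers (Pcp2, Calb1, Car8, Pvalb and Itpr1), 0 of them called, spanned 6430.6 to 6860.1 CPM in MEF2A cKO and 6880.4 to 7588.8 CPM in MEF2A Control, without overlap. The 3 choroid plexus markers, none of them called, spanned 473.9 to 1531.3 CPM in MEF2A cKO and 6.8 to 819.5 CPM in MEF2A Control. The part of these cell types in the results was not tested.

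The element itself is shown first because it links the sites to the factors. Promoter stretches from RefSeq (GRCm38.p6, whose chromosome coordinates are those of mm10), 250 bases before to 10 bases after a gene's start, are given 5′ to 3′ for 4 compensatory sites and, last, a non-compensatory one, with matches to the MEF2 response element in capitals; in each the match lies inside the site.
Mef2a, chr7:67372849-67373108, minus strand: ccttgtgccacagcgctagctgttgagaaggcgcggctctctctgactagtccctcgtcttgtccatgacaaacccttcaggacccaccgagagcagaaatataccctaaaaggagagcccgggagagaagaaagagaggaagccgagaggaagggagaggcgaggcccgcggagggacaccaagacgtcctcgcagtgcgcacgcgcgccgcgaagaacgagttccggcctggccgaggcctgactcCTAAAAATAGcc
Malat1, chr19:5802663-5802922, minus strand: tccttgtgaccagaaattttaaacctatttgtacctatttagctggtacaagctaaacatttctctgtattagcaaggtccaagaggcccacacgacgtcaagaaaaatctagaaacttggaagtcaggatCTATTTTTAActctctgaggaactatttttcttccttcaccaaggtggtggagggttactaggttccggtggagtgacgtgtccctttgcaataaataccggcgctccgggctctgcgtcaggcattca
Kcnj9, chr1:172329313-172329572, minus strand: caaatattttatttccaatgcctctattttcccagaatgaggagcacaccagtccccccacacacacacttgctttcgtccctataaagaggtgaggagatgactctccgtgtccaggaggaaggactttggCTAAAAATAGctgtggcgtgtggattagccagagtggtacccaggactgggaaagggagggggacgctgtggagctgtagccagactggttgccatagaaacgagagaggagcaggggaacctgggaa
Hdac5, chr11:102230163-102230422, minus strand: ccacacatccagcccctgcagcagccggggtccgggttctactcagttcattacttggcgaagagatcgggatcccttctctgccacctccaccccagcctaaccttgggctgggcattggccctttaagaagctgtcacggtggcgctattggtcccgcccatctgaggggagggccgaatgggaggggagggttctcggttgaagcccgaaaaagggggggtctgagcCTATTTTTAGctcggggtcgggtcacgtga
Atf3, chr1:191183324-191183583, minus strand: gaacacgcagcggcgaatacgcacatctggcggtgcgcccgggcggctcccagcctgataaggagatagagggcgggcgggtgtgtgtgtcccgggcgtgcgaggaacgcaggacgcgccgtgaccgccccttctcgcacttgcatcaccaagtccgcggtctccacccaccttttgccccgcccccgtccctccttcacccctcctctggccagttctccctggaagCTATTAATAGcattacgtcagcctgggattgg
Mef2a encodes the deleted factor, Malat1 an abundant nuclear long non-coding RNA, Kcnj9 an inwardly rectifying potassium channel subunit, Hdac5 a class IIa histone deacetylase that binds MEF2 proteins, and Atf3 a stress- and activity-induced transcription factor. The element begins 2 bases before the annotated start of Mef2a. Promoter windows were searched on both strands for the MEF2 response element, which reads alike on both, so each match was counted once. Of the 96 sites that overlap a promoter window, 34 overlapped one that holds the element (35.4%). They were 12 of 22 compensatory ones (54.5%) and 22 of 74 others (29.7%). Counted by window, 42 of the 113 windows that overlap a site held it (37.2%), against 3.19% of all 32851 windows. Whether the match lies inside the site was checked only for the stretches shown. Promoter sites with the element in a window they overlap had a median log2 fold, MEF2A cKO over MEF2A Control, of -0.01 (34 sites). Those without it had one of -0.04 (62 sites). None of them was called, against 1 of all 1372 tested sites (0.0729%).

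Few sites differed in H3K27ac between MEF2A cKO and MEF2A Control. With reads scaled over the sites (TMM), 1 of 1372 sites (0.0729%) passed an adjusted p of 0.05 in edgeR's quasi-likelihood test, a rise, and 0 sites fell. At an unadjusted p under 0.05 there were 110 sites (8.02%), 60 higher (4.37%) and 50 lower (3.64%). Scaled by library totals, 0 of 1371 sites were called by edgeR and 138 (10.1%) had an unadjusted p under 0.05, 34 higher (2.48%) and 104 lower (7.59%). DESeq2 also called 0 sites, with 69 (5.03%) at an unadjusted p under 0.05. The count rests in part on 2 libraries of another line: MEF2AD cKO 3 and MEF2AD Control 3 were the shallowest, with medians of 24 and 34 reads per site, and without them the shared estimate of spread (biological coefficient of variation) was 0.0526 against 0.0684 and 13 sites were called, 9 higher and 4 lower. With the MEF2A line fitted alone 10 sites were called, 6 higher and 4 lower. No setting tried called more than 13 sites in MEF2A cKO.

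Log2 folds in MEF2A cKO ran from -0.33 to 0.46 between the 5th and the 95th percentile of sites, with a median of -0.01, and 2 of 1372 sites passed a 2-fold difference. The median standard error of a site was 0.17, and the log2 folds varied with an SD of 0.24 over sites. For 1259 sites (91.8%) the 95% interval of the log2 fold stayed within 1 unit of 0, and for 905 it stayed within a 1.5-fold change either way. The same measures were wider in the other lines: the SD over sites was 0.63 in MEF2D cKO and 0.86 in MEF2AD cKO, and 129 and 247 sites passed a 2-fold difference there. Those lines had 475 (34.6%) and 866 (63.1%) of 1372 sites called.

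**Figure D1:**
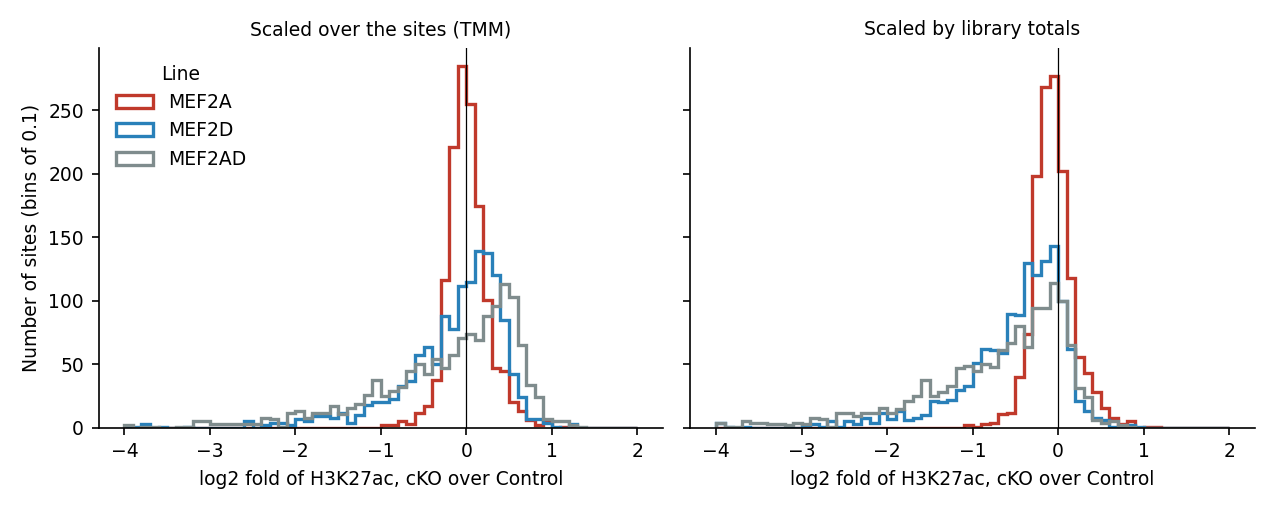
Number of sites (bins of 0.1) by log2 fold of H3K27ac, cKO over Control, for the MEF2A, MEF2D and MEF2AD lines, with reads scaled over the sites (left) and by library totals (right); folds under -4 are drawn at -4. The MEF2A curve is narrow under both scalings, with a median of -0.01 on the left and -0.08 on the right, while the other lines have long tails to the left.

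The choice of scaling moved the centre of the MEF2A folds by less than 0.1. By library totals the median log2 fold was -0.08 in MEF2A cKO, against -0.36 in MEF2D cKO and -0.51 in MEF2AD cKO. This shift goes with the share of library reads in the sites, which was 0.638%, 0.657% and 0.672% in MEF2A cKO libraries and 0.689%, 0.691% and 0.706% in MEF2A Control libraries. Every MEF2A cKO library thus lay below every MEF2A Control library, a difference of -5.776% of the Control mean (0.655% ± 0.0171 in cKO and 0.696% ± 0.00929 in Control, SD, n = 3 each; two-sided exact permutation p = 0.1, the smallest that 3 against 3 allows). The difference from Control was -20.071% in MEF2D cKO and -26.31% in MEF2AD cKO. In a test of the difference itself, line labels were permuted within genotype over 400 arrangements. The effect minus that of MEF2A cKO was -0.0948 percentage points in MEF2D cKO (exact p = 0.09). In MEF2AD cKO it was -0.129 points (exact p = 0.1). A p near the smallest possible, 0.005, needs Controls that differ between lines opposite to the cKO libraries. MEF2AD Controls (0.645%, 0.62% and 0.669%) instead lay below every MEF2A Control, and MEF2AD cKO libraries below every MEF2A cKO library. With such values the MEF2AD test could not give less than 0.1. MEF2D Controls were lower on average too (0.672%). These tests therefore cannot decide whether the lines differ. Adjusted over the 4 such tests run here, each adjusted p was 0.1. A loss of the mark in MEF2A cKO is not established by this share, and the cause of the difference was not tested. Less of the mark per cell and fewer cells that carry it could not be told apart in whole tissue either.

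**Figure D2:**
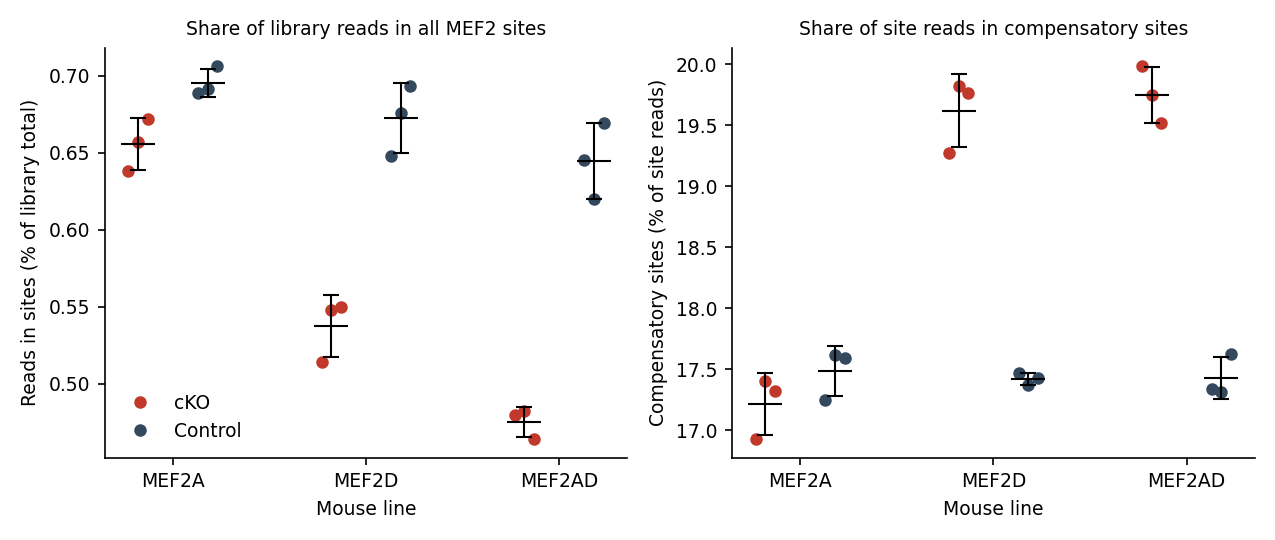
Percent of library reads that lay in the sites (left) and percent of site reads that lay in compensatory sites (right), by line, each point a library, with mean and SD of 3 libraries; axes do not start at 0. MEF2A cKO libraries lie just below their Controls on the left, from 0.638% to 0.672%, and overlap them on the right.

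No compensatory site was called with all libraries and reads scaled over the sites. With the MEF2A line fitted alone, and also without the 2 shallow MEF2AD libraries, 2 were called: a lower one nearest Ptprc (log2 fold -0.46 and -0.45, adjusted p = 0.0473 and 0.03) and a higher one within Mtss1 (0.60 in both fits, adjusted p = 0.0463 and 0.03), a site named after its values were seen. Compensatory sites took 16.928%, 17.401% and 17.322% of site reads in MEF2A cKO libraries and 17.251%, 17.615% and 17.59% in MEF2A Control libraries, and the groups overlapped (difference -0.268 percentage points, exact permutation p = 0.3). This difference in the compensatory share of site reads was -0.124 points without MEF2A cKO 1 (exact permutation p = 0.6) and -0.385 points without MEF2A Control 1 (exact permutation p = 0.2). The same share was 19.618% ± 0.299 in MEF2D cKO and 17.423% ± 0.0514 in MEF2D Control, and 19.749% ± 0.231 in MEF2AD cKO and 17.429% ± 0.173 in MEF2AD Control (SD, n = 3 each). The change was larger than that of MEF2A cKO by 2.46 points in MEF2D cKO (exact p = 0.03) and by 2.59 points in MEF2AD cKO (exact p = 0.05), with an adjusted p of 0.1 for both. A higher share was not a higher level: by library totals the compensatory median log2 fold was -0.14 in MEF2D cKO and -0.26 in MEF2AD cKO. The median log2 fold in MEF2A cKO was -0.05 over 187 tested compensatory sites and 0.00 over 1185 non-compensatory sites. By library totals the medians were -0.12 and -0.07. Among compensatory sites 7 were higher and 2 lower at an unadjusted p under 0.05 (3.7% and 1.1%, against 4.37% and 3.64% of all sites). By library totals the split turned round, with 3 higher and 17 lower of 187, as it did over all sites (2.48% and 7.59%).

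The 33 sites bound by MEF2A alone, at which MEF2D was not detected by the authors' peak calls, took 1.084%, 1.11% and 1.127% of site reads in MEF2A cKO and 1.161%, 1.111% and 1.158% in MEF2A Control. The groups overlapped (exact permutation p = 0.2). Of these sites 23 could be tested, and their median log2 fold was -0.12, with 16 below 0 and 7 above (701 and 671 of all 1372). The median was -0.05 without MEF2A Control 1, -0.08 without MEF2A cKO 1 and -0.20 by library totals. One was higher and one lower at an unadjusted p under 0.05. In MEF2D cKO the same 33 sites took 1.364% ± 0.0174 of site reads, against 1.135% ± 0.0167 in MEF2D Control (SD, n = 3 each).

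Promoter sites took 13.843%, 14.057% and 13.63% of the reads of placed sites in MEF2A cKO and 14.077%, 14.398% and 14.185% in MEF2A Control, without overlap (exact permutation p = 0.1, the smallest possible). In MEF2D cKO the same share was higher than in its Control, at 15.301% ± 0.176 against 14.287% ± 0.353 (SD, n = 3 each). By library totals the median log2 fold of promoter sites in MEF2D cKO was -0.2. The median log2 fold in MEF2A cKO was -0.03 over 154 promoter sites and 0.00 over 1154 distal sites.

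By H3K27ac level, sites were split into 3 groups of nearly equal size with the Controls of the other lines. These libraries are outside the MEF2A contrast but enter the same fit, with its filter, scaling and estimate of spread. The median log2 fold in MEF2A cKO was 0.08 at low-level, -0.00 at middle-level and -0.04 at high-level sites, with median standard errors of a site of 0.25, 0.17 and 0.13. The low-level sites took 12.358%, 11.391% and 12.762% of site reads in MEF2A cKO and 11.939%, 10.993% and 11.267% in MEF2A Control, and the groups overlapped (exact permutation p = 0.2). At an unadjusted p under 0.05, 29 of 458 low-level sites were higher and 16 lower (6.3% and 3.5%), and 4 of 458 high-level sites were higher and 20 lower (0.9% and 4.4%), against 4.37% and 3.64% of all sites. By library totals 19 of 457 low-level sites were higher and 18 lower, and 1 of 458 high-level sites was higher and 57 lower, against 2.48% and 7.59% of all sites. In MEF2D cKO the share of low-level sites was 9.656% ± 0.249, against 11.369% ± 0.322 in MEF2D Control (SD, n = 3 each). By library totals the medians in MEF2A cKO were 0.00 at low-level and -0.11 at high-level sites.

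**Figure D3:**
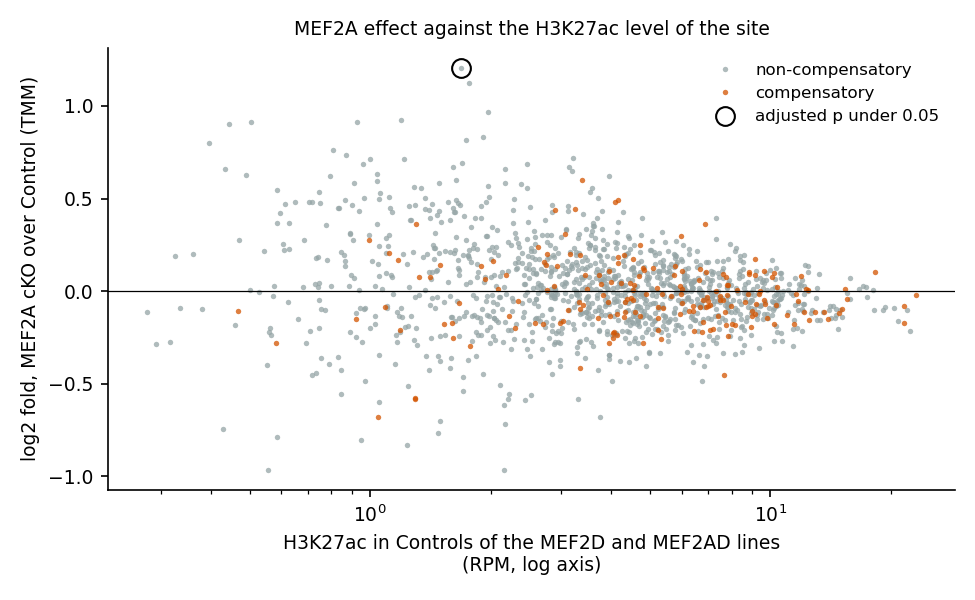
Log2 fold of H3K27ac in MEF2A cKO over MEF2A Control (TMM) against the mean H3K27ac of the site in the Controls of the other lines (RPM, log axis); each point is a site, coloured by class, and the circle marks the site with an adjusted p under 0.05. The spread narrows with the level, and compensatory sites lie among the others, with a median of -0.05.

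The called rise was at site chr2:79569664-79570030 (mm10), a distal MEF2D-bound site outside any gene, 65032 bp from the start of the long non-coding RNA gene Gm46751; the nearest protein-coding start was that of Itprid2. It had 2.55, 2.62 and 4.54 reads per 1000000 reads of the library (RPM) in MEF2A cKO and 1.64, 1.06 and 1.65 in MEF2A Control. The groups did not overlap, which the choice of the site favours, and MEF2A cKO 3 was the highest library. The log2 fold was 1.21 ± 0.25 (standard error; adjusted p = 0.0152). Without MEF2A cKO 3 it was 0.91 (adjusted p = 0.208), without MEF2A Control 2 it was 1.04 (adjusted p = 0.231) and without MEF2A Control 3 it was 1.28 (adjusted p = 0.0631). By library totals it was 1.14 (adjusted p = 0.0881), and with DESeq2 1.21 (adjusted p = 0.0764). The site had a log2 fold of 0.12 in MEF2D cKO (adjusted p = 0.781) and of -0.37 in MEF2AD cKO (adjusted p = 0.217). The input libraries held 0.275 RPM there in MEF2AD cKO and 0.306 in MEF2AD Control.

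The other sites of smallest p among the rises did not pass the test with all libraries; each had an adjusted p of 0.0826. A site within Lrp1b, a large receptor of the LDL receptor family (chr2:41636417-41636764), had 1.96, 1.98 and 2.27 RPM in MEF2A cKO and 0.846, 1.27 and 0.895 in MEF2A Control (log2 fold 1.13 ± 0.27, standard error). Sites within Abtb2 (chr2:103662170-103662430), within Dpp10, an auxiliary subunit of Kv4 potassium channels (chr1:124156851-124157137), and near Zc3hc1, a nuclear zinc finger protein (chr6:30355684-30355954), had log2 folds of 0.97, 0.72 and 0.62. All of them are non-compensatory, and in each the groups did not overlap, which the choice by smallest p favours. At the Lrp1b site the direction was opposite in the double knockout, with a log2 fold of -1.06 (adjusted p = 0.000753).

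Among the falls the smallest p values were those of a site near Ptpru, a receptor tyrosine phosphatase (chr4:131488063-131488580), and a site within Pcnt, which encodes the centrosomal scaffold pericentrin (chr10:76416870-76417198). The Ptpru site had 2.6, 2.67 and 2.43 RPM in MEF2A cKO and 5.13, 4.02 and 3.72 in MEF2A Control (log2 fold -0.68 ± 0.18, adjusted p = 0.0826). The Pcnt site had 0.797, 1.29 and 1.42 in MEF2A cKO and 2.14, 2.47 and 2.69 in MEF2A Control (log2 fold -0.97 ± 0.26, adjusted p = 0.0826). Neither overlapped between groups, which the choice by smallest p favours here too. Both sites were called in the other lines in the same direction: the log2 fold was -1.70 in MEF2D cKO and -2.41 in MEF2AD cKO at the Ptpru site, and -1.82 and -3.02 at the Pcnt site. A compensatory site whose nearest coding start is Ptprc, the leukocyte phosphatase CD45 (chr1:137657042-137657364), had a log2 fold of -0.45 ± 0.13 (adjusted p = 0.12). A site within Dpf3, a subunit of the BAF chromatin remodelling complex (chr12:83283688-83284065), had one of -0.40 ± 0.12 (adjusted p = 0.17). In MEF2AD cKO the Dpf3 site had a log2 fold of 0.48 (adjusted p = 0.000439), and of -0.02 by library totals (adjusted p = 0.882). Without the 2 shallow MEF2AD libraries, the called sites included the 5 rises above and the Ptpru, Pcnt and Ptprc sites, at adjusted p values of 0.00293 to 0.03.

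**Figure D4:**
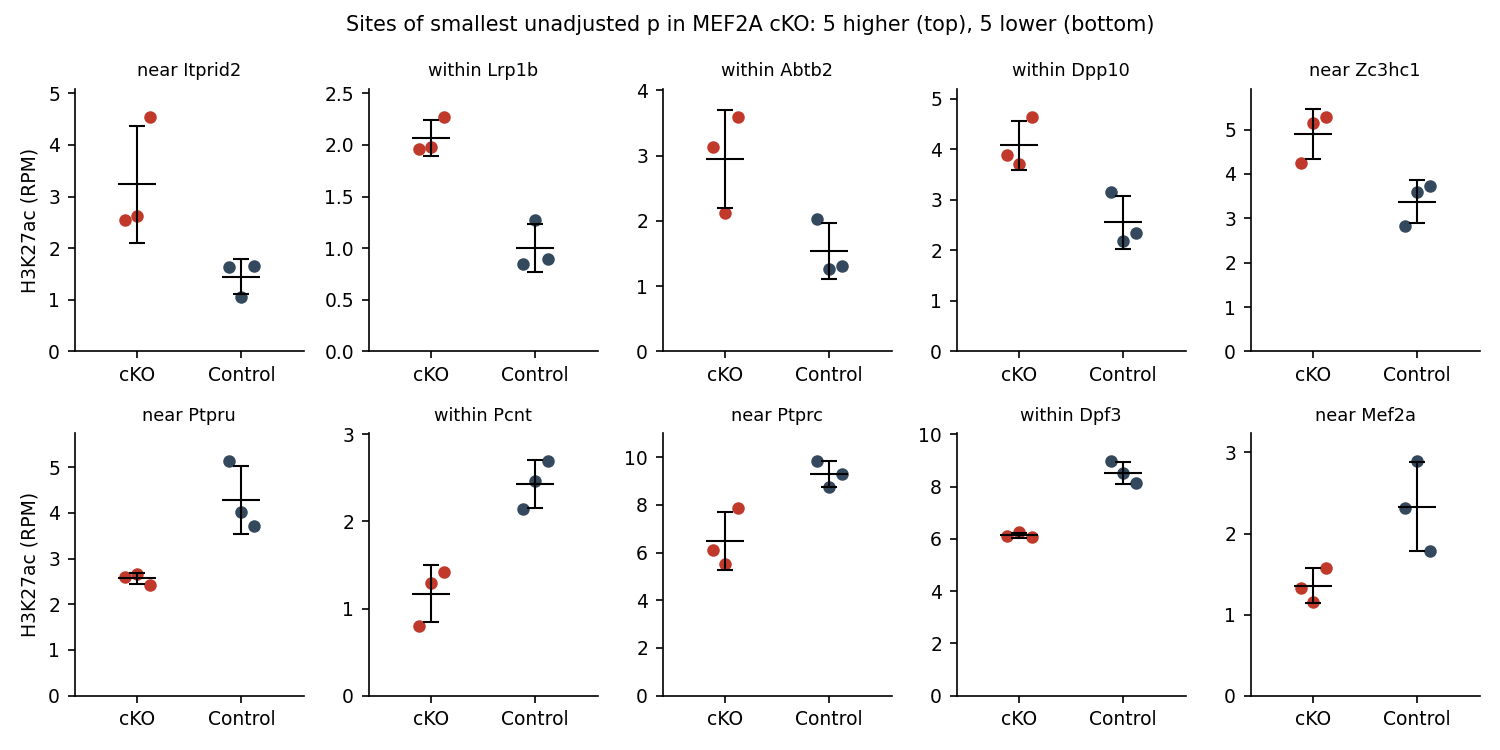
H3K27ac in RPM at the 5 rises (top row) and 5 falls (bottom row) of smallest unadjusted p, MEF2A cKO on the left of each panel and MEF2A Control on the right; points are libraries, bars the mean and SD of 3. In every panel the groups do not overlap, which the choice by smallest p favours. Only 1 site (near Itprid2) had an adjusted p under 0.05.

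Sites were assigned to the Mef2 genes themselves too, by nearest protein-coding start. The site over the Mef2a start (chr7:67372576-67373229), compensatory and among the 5 compensatory sites with the highest H3K27ac, had 16.6, 21.8 and 19.2 RPM in MEF2A cKO and 21.7, 24.7 and 22.3 in MEF2A Control. The groups overlapped by a narrow margin, and the log2 fold was -0.17 ± 0.11 (adjusted p = 0.734). A distal non-compensatory site upstream of Mef2a (chr7:67503512-67503736) lay outside any gene, 24672 bp from the nearest start, that of Gm34079. The start of Mef2a, its nearest protein-coding one, is farther away, within chr7:67372849-67373108. The site had 1.33, 1.15 and 1.58 in MEF2A cKO and 2.31, 2.89 and 1.79 in MEF2A Control. It did not overlap between groups, which the choice by smallest p favours. Its log2 fold was -0.72 ± 0.24 (adjusted p = 0.242), and -0.79 by library totals. In MEF2D cKO and MEF2AD cKO that site had log2 folds of -0.56 and -0.55 (adjusted p = 0.0598 and 0.0366). The 2 sites at Mef2d, the paralogue, had log2 folds of 0.12 ± 0.14 and -0.09 ± 0.12 in MEF2A cKO, and the 3 at Mef2c of -0.10 ± 0.21, 0.48 ± 0.40 and -0.03 ± 0.14. None passed the test. RNA of Mef2d was 297.3 ± 39.3 CPM in MEF2A cKO and 298.1 ± 30.4 CPM in MEF2A Control, and RNA of Mef2c 42.5 ± 1.97 and 42.4 ± 4.13 CPM in the same order (SD, n = 4 each).

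The other compensatory sites of highest H3K27ac overlapped between groups. One within Cabin1, a calcineurin-binding inhibitor of MEF2 activity (chr10:75667272-75667802), had 22.9, 24.5 and 19.9 RPM in MEF2A cKO and 23.4, 26.6 and 22.2 in MEF2A Control. Its log2 fold was -0.02 ± 0.10, with a 95% interval of -0.22 to 0.17. Sites near Adcy1, a calcium-stimulated adenylyl cyclase, over the Malat1 start and near Klf13, a Krüppel-like factor, had log2 folds of -0.08, 0.10 and -0.04, and the promoter sites of Kcnj9, Hdac5 and Atf3 shown above had values of 0.10 ± 0.11, -0.08 ± 0.13 and 0.08 ± 0.31. At the Adcy1 and Klf13 sites the log2 fold was 0.36 and 0.54 in MEF2D cKO, and the difference from MEF2A cKO passed the test (adjusted p = 0.022 and 0.00433); by library totals it did not (adjusted p = 0.429 and 0.137).

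No gene list had a called site with all libraries, where 1 of all 1372 sites was called. The lists below were chosen with earlier results of these data known. Sites were assigned to the nearest protein-coding start. Over all 1372 sites 671 had a log2 fold above 0 and 701 below, and by library totals 890 of 1371 were below 0. Of 13 sites at textbook MEF2 targets 6 had a log2 fold above 0 and 7 below, with a median of -0.07 (-0.01 over all sites). Members of smallest p were a site near Acta1, skeletal actin (0.32 ± 0.20), and sites within Hdac9 and Hdac7, class IIa deacetylases (-0.22 ± 0.14 each). The 16 sites at activity-regulated genes had a median of -0.06, with 6 above 0 and 10 below; a site nearest Atf3 over the start of D730003I15Rik had -0.26 ± 0.13 and one near Fosb, an AP-1 subunit, -0.26 ± 0.21. The 12 sites at potassium channel genes had a median of 0.10, with 8 above 0, and the 8 sites at synapse genes one of 0.16, with 7 above 0. By library totals these medians were 0.02, with 5 of 12 below 0, and 0.08, with 3 of 8 below 0. Of the synapse sites, one within Naaladl2 and nearest Nlgn1, which encodes neuroligin 1, had 2.28, 1.66 and 2.58 RPM in MEF2A cKO and 1.81, 1.2 and 0.758 in MEF2A Control, with overlap (log2 fold 0.81 ± 0.25, adjusted p = 0.17). Of the immature granule cell genes, the site at Ptch1, the hedgehog receptor, had a log2 fold of 0.10 ± 0.20.

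The 10 sites at mature granule neuron genes had a median of 0.01, and of -0.06 by library totals. A site within Vsnl1, a neuronal calcium sensor counted in the calcium list too, had 4.51, 4.0 and 4.06 RPM in MEF2A cKO and 5.58, 5.99 and 5.99 in MEF2A Control. A site within Slc17a7, the vesicular glutamate transporter VGLUT1, had 5.89, 5.47 and 5.64 in MEF2A cKO and 7.39, 7.19 and 8.2 in MEF2A Control. Both pairs of groups were apart, which the choice by smallest p within the list favours. Their log2 folds were -0.41 ± 0.15 and -0.35 ± 0.14, with adjusted p values of 0.327 and 0.365. RNA of Vsnl1 was 397.6 ± 13.2 CPM in MEF2A cKO and 392.6 ± 45.5 CPM in MEF2A Control, and RNA of Slc17a7 765.3 ± 32.5 and 782.1 ± 27.1 CPM in the same order (SD, n = 4 each). Of 9 sites at calcium signalling genes 8 had a log2 fold below 0, with a median of -0.15, against 701 of 1372 and -0.01 over all sites. By library totals 8 of 9 were below 0, with a median of -0.22, against 890 of 1371 and -0.08. The exception, within Rcan2, a calcineurin regulator, had 0.80 ± 0.40 with 0.413 to 1.16 RPM. A site within Atp2b2, a plasma membrane calcium pump, had a log2 fold of -0.18 ± 0.11.

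The MEF2A effect was then tested against those of the other lines. The MEF2A effect minus the MEF2D effect passed an adjusted p of 0.05 at 255 of 1372 sites (18.6%), 172 higher (12.5%) and 83 lower (6.05%). By library totals it was 333 (24.3%), 328 higher (23.9%) and 5 lower (0.365%). The MEF2AD effect minus the MEF2A effect passed at 623 sites (45.4%), 266 higher (19.4%) and 357 lower (26.0%), and by library totals at 585 (42.7%), 21 higher (1.53%) and 564 lower (41.1%). No library is shared between these lines. At the 274 sites (20.0%) that were called lower in MEF2D cKO, the median log2 fold was -0.06 in MEF2A cKO, against -0.93 in MEF2D cKO, whose values chose these sites. In MEF2A cKO 25 of the 274 were lower and 13 higher at an unadjusted p under 0.05 (9.1% and 4.7%, against 3.64% and 4.37% of all sites). By library totals 37 of the 274 were lower and 8 higher, against 104 and 34 of all 1371 sites (7.59% and 2.48%). At the 201 sites (14.7%) called higher in MEF2D cKO the median in MEF2A cKO was -0.01. By library totals 8 sites were called higher in MEF2D cKO and 565 lower. Across the 1372 sites the log2 folds of MEF2A cKO had a Pearson correlation of 0.116 with those of MEF2D cKO and of 0.075 with those of MEF2AD cKO.

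**Figure D5:**
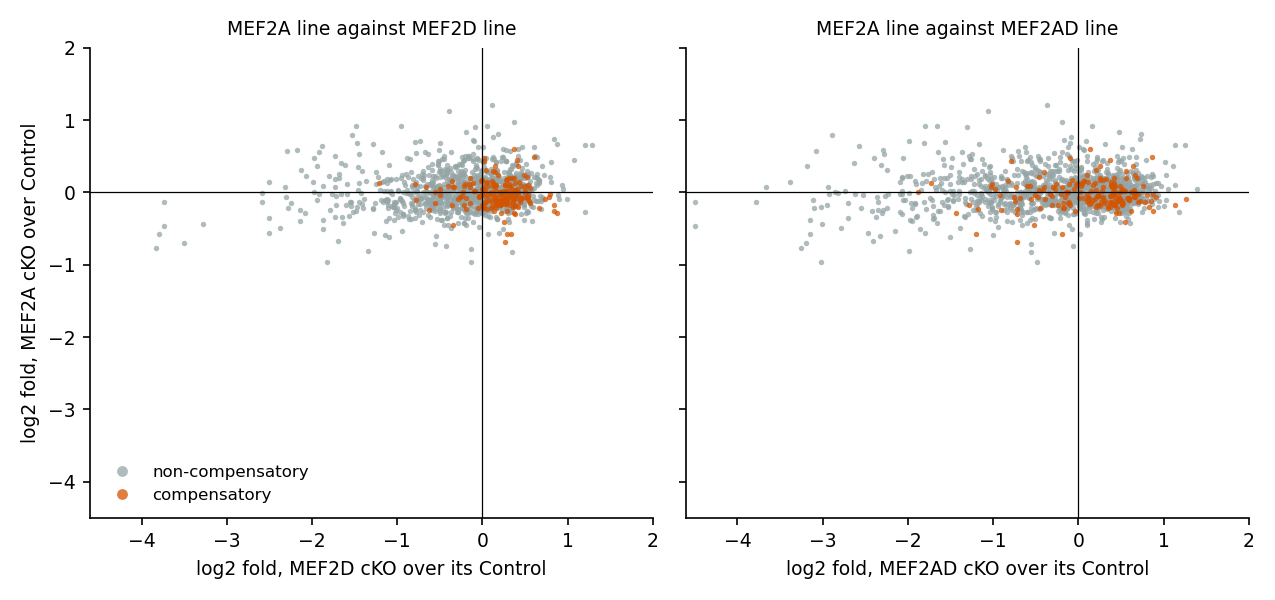
Log2 fold of H3K27ac in MEF2A cKO over Control (vertical) against that in MEF2D cKO (left) and MEF2AD cKO (right) over their Controls, TMM, 1 point per site, coloured by class; folds under -4.5 are drawn at -4.5. Sites spread along the horizontal axis to the left, while in MEF2A cKO they stay close to 0, with 5th and 95th percentiles of -0.33 and 0.46.

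The 5 sites with the largest falls in MEF2D cKO, chosen after their values were seen, had smaller log2 folds in MEF2A cKO. A site within the gene 2810004N23Rik (chr8:124860200-124860484) had 2.28, 2.07 and 1.53 RPM in MEF2A cKO and 3.16, 2.96 and 3.17 in MEF2A Control, without overlap; its log2 fold was -0.58 ± 0.21 (adjusted p = 0.327) in MEF2A cKO and -3.80 in MEF2D cKO. A site within Rhot1, a mitochondrial transport GTPase (chr11:80238374-80238574), had log2 folds of -0.77 ± 0.33 and -3.83 in the same order. A site within Tcf12, an E-protein transcription factor (chr9:71858021-71858350), had 1.59, 1.79 and 2.0 RPM in MEF2A cKO and 1.58, 1.97 and 2.75 in MEF2A Control, with overlap, and log2 folds of -0.13 ± 0.24 in MEF2A cKO and -3.73 in MEF2D cKO. All 5 had a log2 fold below 0 in MEF2A cKO, from -0.77 to -0.13, and none passed the test there.

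RNA and H3K27ac of the line were then set side by side. In the RNA 43 of 15469 genes (0.278%) passed an adjusted p of 0.05 in limma. Of the 1051 genes assigned to sites 846 were measured and matched by symbol, and 7 of them were called (0.827%), 3 higher and 4 lower. With the replicate number as a block, which pairs the RNA libraries, 20 of the 846 were called (10 higher, 10 lower), against 116 of all genes (0.750%). Elavl2, a neuronal RNA-binding protein, had 299.1, 175.4, 243.2 and 220.0 CPM in MEF2A cKO and 33.9, 30.9, 35.2 and 30.5 CPM in MEF2A Control (log2 fold 2.78 ± 0.14, adjusted p = 2.88e-13). Its one site, 275554 bp from its start (chr4:91096264-91096486), had 7 to 12 reads per library in all 6 libraries and a log2 fold of -0.28 ± 0.43. Gabra6, the granule cell GABA-A receptor subunit, had 1286.0 ± 112.0 CPM in MEF2A cKO and 771.7 ± 70.2 CPM in MEF2A Control (SD, n = 4 each; log2 fold 0.74 ± 0.08, adjusted p = 1.45e-06). The site within Gabra6 (chr11:42310961-42311312) had 3.88, 4.83 and 4.43 RPM in MEF2A cKO and 5.08, 4.72 and 4.61 in MEF2A Control, with overlap and a log2 fold of -0.06 ± 0.15. Ntng2, a netrin-G cell adhesion molecule, was the other gene with higher RNA (0.68 ± 0.13, adjusted p = 0.0134), and its site had a log2 fold of 0.10 ± 0.16.

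Besides Mef2a, RNA was lower for Dnah11, an axonemal dynein heavy chain (-0.48), Nfatc2, a calcineurin-dependent transcription factor (-0.42), and Igsf21, a synaptic adhesion molecule (-0.26). The 6 sites assigned to these 4 genes had a median log2 fold of H3K27ac of -0.14, 5 below 0 and 1 above, and none was called. The range, -0.72 to 0.57, ran from the distal site upstream of Mef2a to one assigned to Igsf21 (chr4:140204878-140205160). That Igsf21 site had 2.92 ± 0.284 RPM in MEF2A cKO and 2.04 ± 0.283 in MEF2A Control (SD, n = 3 each, adjusted p = 0.35). Adamts17 and 1700112J16Rik, which lie near Mef2a on chromosome 7, had higher RNA in MEF2A cKO: 13.0 ± 2.18 CPM against 4.07 ± 0.304 in MEF2A Control, and 24.2 ± 2.09 CPM against 0.419 ± 0.144 (SD, n = 4 each). The one site within Adamts17 held 3, 6 and 6 reads in MEF2A cKO and 5, 4 and 4 in MEF2A Control, too few for the test. Ccdc63, a coiled-coil protein of motile cilia and sperm flagella, had lower RNA (-0.56 ± 0.12, adjusted p = 0.0486), and the site within it (chr5:122130426-122130791) had 8.23, 8.14 and 6.96 RPM in MEF2A cKO and 9.03, 9.37 and 10.7 in MEF2A Control, without overlap (log2 fold -0.24 ± 0.12, adjusted p = 0.628). Itprid2, the coding gene nearest the called site, had no RNA matched by symbol, so its RNA is not described. Besides Mef2a, no gene with matched RNA at the 10 sites of smallest p was called. RNA of Lrp1b, for example, was 62.9 ± 6.19 CPM in MEF2A cKO and 63.7 ± 5.23 CPM in MEF2A Control (SD, n = 4 each).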

How the data were processed

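H3K27ac was read from the authors' deposited table of read counts per site, 18 libraries and 2 inputs, with each library's total above its column; the counts carry no normalization. Site positions, classes and the MEF2A and MEF2D peak lists (203 and 1388 peaks) are the authors'; 90 sites were tied to the authors' deposited gene clusters. RNA values were deposited as log2 CPM, with a pseudocount of 0.5 reads that left whole reads recoverable (100.0% of values within 0.05 reads; 9178139 to 14260333 reads per library in the MEF2A line). Per the submitters' processing notes, Bowtie2 2.3.4.2, STAR 2.6 and MACS2 were used with mm10; the sources used here do not state their roles, the counting tool or the filters. The deposited starts count from 0, and 1 was added to each.

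Counts were tested with edgeR 4.0.16 (R 4.3.3): quasi-likelihood fit of 6 group means over all 18 libraries, TMM over the sites, edgeR's filter on low counts and Benjamini-Hochberg adjustment over 1372 sites. The library totals, with no site-based factor, were the second scaling. Of the 47 sites not tested, each held at most 15 reads in any MEF2A-line library; 13 of them lie on chromosome Y and held 0 reads in all 18 libraries. RPM are per library total; errors beside log2 folds are standard errors, and errors beside other values SD. Shares were compared by exact permutation over libraries. RNA was tested by limma 3.58.1 (limma-trend on log2(CPM + 1), 24 libraries, no filter). Sites were placed by RefSeq gene starts (GRCm38.p6); 65 sites on chromosome 18 and 2 on an unplaced contig were not placed. The nearest protein-coding start was used for gene lists and RNA, a choice made after seeing that 615 sites lay nearest a long non-coding RNA. Both tests were checked on simulated data. Other steps used Python 3.11.15, pandas 2.3.3, numpy 2.4.6, scipy 1.17.1 and matplotlib 3.10.9.

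The sites, lists and tests were chosen with earlier results of these data known. Named sites are the 5 of smallest p each way (called ones first), those at Mef2a, Mef2c and Mef2d, the 5 highest compensatory ones, those at genes the earlier RNA account named and up to 3 per list, by smallest p. At sites named by p, groups without overlap are no further support. The share of all sites without overlap is not given here. One site of the immature granule cell list is not reported here. The sites at Hdac5 and Atf3 promoters, the 5 largest MEF2D falls and the genes called in RNA were added after their values were seen. Same-numbered RNA libraries of cKO and Control deviated together (correlations 0.383, 0.47, 0.22 and 0.184), so the numbers may pair them, a pairing read from the data. Alternatives were other scalings, no filter, DESeq2 1.42.0, the replicate block, the MEF2A line alone, left-out libraries, other overlaps and distances and, for RNA, another pseudocount, a filter, edgeR on the recovered reads and the nearest start of any gene. Intervals cover counting error and the spread between these samples only.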

Additional observations from a re-analysis of the deposited data

Results flagged for a closer look

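The effect of MEF2A loss differed from that of MEF2D loss at 255 sites and from that of the double knockout at 623 sites, by tests of the difference itself in edgeR. The sites below lie at Mef2 genes, are among the highest compensatory ones or lie at genes the earlier RNA account named. These reasons do not use H3K27ac folds, but only sites that passed are listed. How many were looked at is not given here. Of all tested sites 18.6% and 45.4% passed, in the same order. The MEF2A effect minus the MEF2D effect (log2) was 1.3 at a Mef2c site (chr13:83111682-83111883, adjusted p = 0.00433). It was -0.54 at a Mef2d site (chr3:88133204-88133669, adjusted p = 0.035) and 0.55 at the site within Ccdc63 (adjusted p = 0.0293). Near Adcy1 it was -0.44 (adjusted p = 0.022) and near Klf13 -0.58 (adjusted p = 0.00433). The MEF2AD effect minus the MEF2A effect was 0.68 over the Mef2a start (adjusted p = 0.00022), -1.0 and 0.51 at sites of Mef2c (adjusted p = 0.0106 and 0.0309), 0.44 within Cabin1 (adjusted p = 0.0073), 0.68 near Adcy1 (adjusted p = 9.16e-05), 0.85 near Klf13 (adjusted p = 7.99e-06), -1.0 within Ccdc63 (adjusted p = 1.47e-05) and -1.15 at a Gcnt1 site (adjusted p = 0.00095). These differences are with reads scaled over the sites. By library totals the differences at that first Mef2c site, within Ccdc63 and at Gcnt1 also passed, as did the MEF2AD difference near Klf13 (0.40, adjusted p = 0.0159), and the others named here did not (adjusted p = 0.137 to 0.974).

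Of 26 groups of 4 RNA libraries looked at, 1 held a library apart from the others, about as many as chance gives at 1 in 20 groups: Nfatc2 in MEF2A cKO had 26.7 CPM in replicate 3 and 22.6 to 23.1 CPM in the other libraries.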

How the results depend on the processing

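The count of 1 called site in MEF2A cKO became 0 by library totals, 0 with DESeq2, 5 with the replicate block, 10 with the MEF2A line alone, 6 with that line alone by library totals and 13 without the 2 shallow MEF2AD libraries, an alternative chosen after seeing the data; it was 1 under the other settings and ran from 0 to 4 when a MEF2A library was left out. The cause was not tested. The called site near Itprid2, site chr2:79569664-79570030, had log2 folds of 0.82 to 1.34 with a library left out under either scaling. The 51 tested named sites had no called value of opposite sign under any setting, although the sign of an uncalled fold changed at 14 of them; 26 of 1117 values were newly called and 11 lost the call, those of the Itprid2 site. Median folds shifted with library totals to -0.08 over all sites, -0.12 in compensatory, -0.07 in non-compensatory, -0.10 in promoter and -0.11 in high-level sites; the promoter median ran from -0.06 to -0.02 with a library left out. The shares of all sites and of compensatory and promoter sites kept their direction under every setting tried; those of low-level sites and of the 33 sites with MEF2A alone were not recomputed. The count of genes at sites called in RNA was 20 with the replicate block and 6 to 9 under the others. Total counts of differences between lines moved by less than 1.5 times, but counts by direction moved more. By library totals the MEF2A effect minus the MEF2D effect was lower at 5 sites, against 83 scaled over the sites. The MEF2AD effect minus the MEF2A effect was higher at 21 sites, against 266. Same-numbered H3K27ac libraries had correlations of 0.168, 0.108 and 0.095, and those of unlike number ran from -0.105 to -0.008. Each library thus correlated best with its own number. The numbers may pair these libraries too, but the main test did not use a pairing. Low-level sites had a median standard error of 0.25, against 0.13 at high-level sites, which limits what can be seen there.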
